A study of Mus musculus with 9 samples.

Results

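The genes described here are 10 genes of macrophages and of class II antigen presentation in the mouse testis, out of 19935 genes with a value. They were chosen by symbol: an array row belonged to a gene where its gene symbol was exactly Fcgr3, Aif1, H2-Aa, H2-Ab1, H2-Eb1, Cd74, Adgre1, Csf1r, Mrc1 or Cx3cr1. Each of the 10 genes had 1 row. Whole testis was taken from untreated male Swiss albino mice at 8, 16 and 24 days of age, with 3 arrays per age and 9 in all, and each array is stated to be a biological replicate. No genotype, transgene or treatment distinguished the animals, so that age is the only named difference between the groups. Replicates 1 and 2 carry those numbers in their titles, and replicate 3 carries none.

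Macrophages are resident immune cells of the testis interstitium, where they lie among the Leydig cells and along the outside of the seminiferous tubules. The colony stimulating factor 1 receptor keeps them alive, and the mouse testis is known to hold both interstitial macrophages with little class II protein and peritubular macrophages that carry more of it. Class II molecules are pairs of an alpha and a beta chain that show peptides to CD4 T cells. H2-Aa encodes the alpha chain and H2-Ab1 the beta chain of the I-A molecule, H2-Eb1 encodes the beta chain of I-E, and Cd74 encodes the invariant chain that holds the peptide groove until loading. Fcgr3 encodes a receptor for the constant part of IgG, and Aif1 encodes IBA1, a calcium- and actin-binding protein used as a macrophage and microglia marker. Adgre1 encodes an adhesion receptor of the macrophage surface, Csf1r the receptor for CSF1 and IL-34, Mrc1 the mannose receptor CD206, and Cx3cr1 the receptor for the chemokine fractalkine. These 4 are called the general macrophage genes below.

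Genes of class II presentation are known to be switched on together by the activator CIITA through paired promoter elements, the X box and the Y box. The sequences are shown so that class II genes with that element can be set beside Fcgr3 and Aif1. The sequences used here held no entry for H2-Ab1, the class II member that rose with age, so that it is named only. The class II genes shown, H2-Aa, H2-Eb1 and their partners, are ones that did not pass the test for age. Cd74 is not shown. Each line gives the 120 bases before the annotated start, in the direction of transcription, from RefSeq (GRCm38.p6), for H2-Aa and H2-Eb1, the class II partners H2-Oa and H2-Ob, Fcgr3 and Aif1. Capitals mark GCAAC, a core of the X box, and TGATTGG, a core of the Y box, searched on both strands. The positions are chr17:34287824-34287943 (minus strand) for H2-Aa, chr17:34305747-34305866 (plus) for H2-Eb1, chr17:34092259-34092378 (plus) for H2-Oa, chr17:34238785-34238904 (plus) for H2-Ob, chr1:171059404-171059523 (minus) for Fcgr3, which has 2 starts listed and is shown for the first of them, and chr17:35176053-35176172 (minus) for Aif1.
H2-Aa: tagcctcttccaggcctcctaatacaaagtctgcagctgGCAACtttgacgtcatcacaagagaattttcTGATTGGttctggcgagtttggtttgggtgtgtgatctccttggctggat
H2-Eb1: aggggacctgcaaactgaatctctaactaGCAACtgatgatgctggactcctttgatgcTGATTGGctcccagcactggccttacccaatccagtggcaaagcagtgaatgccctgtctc
H2-Oa: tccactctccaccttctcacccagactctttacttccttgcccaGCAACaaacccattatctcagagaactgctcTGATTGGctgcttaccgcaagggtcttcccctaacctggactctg
H2-Ob: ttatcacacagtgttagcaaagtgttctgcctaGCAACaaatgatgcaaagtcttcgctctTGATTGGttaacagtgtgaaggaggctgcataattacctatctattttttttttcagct
Fcgr3: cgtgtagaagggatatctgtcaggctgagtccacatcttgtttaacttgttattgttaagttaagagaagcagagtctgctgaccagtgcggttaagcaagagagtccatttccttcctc
Aif1: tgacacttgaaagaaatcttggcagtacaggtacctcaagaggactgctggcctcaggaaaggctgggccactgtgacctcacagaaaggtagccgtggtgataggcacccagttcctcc

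In H2-Aa, H2-Eb1, H2-Oa and H2-Ob the Y core followed the X core after 26, 25, 26 and 23 bases. Over the 32851 starts in the table, 16.1% of such windows held GCAAC, 5.15% held TGATTGG, and 0.17% held GCAAC followed by TGATTGG on 1 strand with 15 to 40 bases between. The cores and the spacing were set after these sequences had been read, and a match describes letters only.

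The deposited values are log2 values relative to the median of each row over the 9 arrays, so that they show differences between arrays and hold no absolute level. The base of the logarithm was not stated and was taken as 2. Blank cells, of which every row had at least 1, were read as 0. Across all genes the median change was -0.02 for 16 against 8 days, -0.16 for 24 against 16 days and -0.18 for 24 against 8 days. Centring each array on its median added 0.03, 0.09 and 0.12 to the changes of these comparisons. In bulk tissue, fewer cells of a type and less RNA per cell cannot be told apart. A pair of arrays, replicate 1 of 8 days and replicate 2 of 16 days, had olfactory receptor genes with a median of 0.17, against -0.05 to 0.03 in the other 7 arrays. Replicate 1 of 16 days stood apart in interferon-induced genes, of which 11 of 13 measured were highest in that array, against 3.75% of all genes. The number of arrays limits the precision.

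The macrophage markers did not all move in 1 direction. Fcgr3, Aif1 and H2-Ab1 rose over the 16 days studied, Csf1r and Cx3cr1 fell, and H2-Aa, H2-Eb1, Cd74, Adgre1 and Mrc1 did not pass the test. By limma with Benjamini-Hochberg adjustment over all genes and a threshold of 0.05, 3 of 10 members rose between 8 and 24 days and 2 fell. Over all genes 54.4% passed, 19.2% as higher and 35.2% as lower, so that the share of members that moved is near the background. The arrays of 24 and 8 days did not overlap for those same 5 genes, 3 higher and 2 lower, against 20.5% of all genes higher and 45.0% lower. For 24 against 16 days 3 members were higher without overlap and 0 lower (all genes 16.5% and 39.1%), and for 16 against 8 days 2 were higher and 2 lower (all genes 14.7% and 21.5%).

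**Figure D1:**
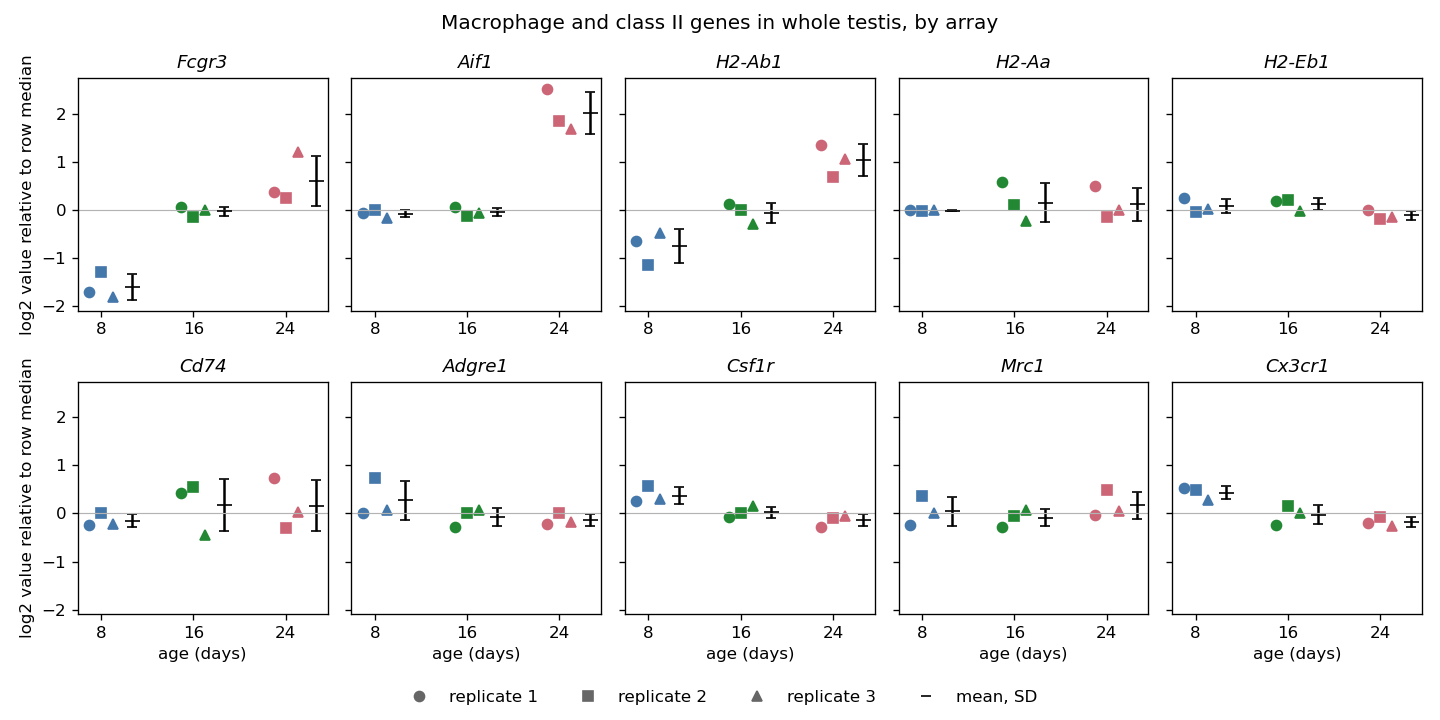
Log2 value relative to the row median (vertical axis, shared) against age in days for the 10 genes, with 1 symbol per array and the mean ± SD at the right of each age. All 3 arrays of 24 days lie above all 3 arrays of 8 days for Fcgr3, Aif1 and H2-Ab1, and below them for Csf1r and Cx3cr1.

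Fcgr3 (gene ID 14131), the low-affinity IgG receptor CD16, was lowest at 8 days and had most of its rise before 16 days. Its values were -1.70, -1.28 and -1.80 at 8 days, 0.06, -0.14 and 0 at 16 days, and 0.38, 0.24 and 1.21 at 24 days in replicates 1, 2 and 3. No array of an older age overlapped one of a younger age, and replicate 3 of 24 days was well above the other arrays of its age. Fcgr3 rose 2.97-fold between 8 and 16 days, by 1.57 ± 0.23 on the log2 scale (standard error, n = 3 per age, limma adjusted p 0.00095). Over this interval 10.4% of all genes were higher and 14.3% lower, 24.7% in all, and 4 of 10 members passed, 2 in each direction. The later change, 24 against 16 days, was 0.64 ± 0.23 and did not pass the test (limma adjusted p 0.058). It was 0.34 without replicate 3 of 24 days, and 0.82 without replicate 2 of 24 days, when it passed (limma adjusted p 0.0336). Over the whole span Fcgr3 was 4.62-fold higher at 24 than at 8 days, with a change of 2.21 ± 0.23 (limma adjusted p 2.62e-05) and a range of 1.91 to 2.39 when each array was left out in turn.

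The other genes of IgG binding gave other values. Fcer1g, the signalling gamma chain that Fcgr3 needs at the cell surface, had values of 0.04, 0.38 and 0 at 8 days, 0.17, -0.28 and 0.04 at 16 days and -0.33, -0.14 and -0.29 at 24 days. Fcer1g fell by 0.39 ± 0.14 between 8 and 24 days (limma adjusted p 0.0347), and Fcgr2b, the inhibitory IgG receptor, fell by 0.39 ± 0.14 (limma adjusted p 0.036). Fcgr1, the high-affinity receptor CD64, changed by -0.22 ± 0.10 and Fcgr4 by -0.08 ± 0.12 over the same span, and neither passed. The difference Fcgr3 minus Fcer1g averaged 0.86 ± 0.57 at 24 days and -1.74 ± 0.07 at 8 days (SD, n = 3), with no overlap between the ages (exact permutation test, 2-sided p 0.1, the smallest that 3 against 3 arrays can give). That outcome was fixed beforehand, since Fcgr3 lay higher and Fcer1g lower at 24 days, each without overlap. The pair was chosen after the values were seen, so that the test adds nothing to the single genes. Among all 14 other Fc receptor genes measured, 1 rose and 3 fell between 8 and 24 days, where 19.2% of all genes rose and 35.2% fell, with a median change of -0.12 against -0.18 for all genes. The gene that rose was Fcrla, an intracellular relative found in B cells, by 0.79 ± 0.10 (limma adjusted p 9.12e-05), and Fcrls fell by 0.71 ± 0.20 (limma adjusted p 0.0129). With each array centred on its median, 1 rose and 1 fell, and without both arrays with raised olfactory receptor genes 2 rose and 2 fell.

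The gene next to Fcgr3 in RefSeq order, Cfap126, a protein of motile cilia, rose in both intervals. The later change of Fcgr3 had the same direction, 0.64 without overlap of arrays, and narrowly missed the threshold (limma adjusted p 0.058). The difference between Fcgr3 and Cfap126 was not tested. Cfap126 had values of -1.29, -1.45 and -1.74 at 8 days, -0.23, 0.28 and 0 at 16 days and 1.98, 1.66 and 1.64 at 24 days. It changed by 1.51 ± 0.16 between 8 and 16 days and by 1.75 ± 0.16 between 16 and 24 days, and both changes passed the test (limma adjusted p 0.00012 and 5.48e-05). The next gene beyond it, Sdhc, a subunit of succinate dehydrogenase, changed by -0.05 ± 0.08 between 8 and 24 days. The neighbours on the other side are Fcgr4 and Fcgr2b, given above. A gene list of spermatocytes moved with Fcgr3 too: its 10 measured genes all rose between 8 and 16 days, and their mean per array was -2.68 to -2.55 at 8 days, 0.002 to 0.436 at 16 days and 0.816 to 0.951 at 24 days. The part of these genes and cells in the Fcgr3 values was not tested.

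Aif1 (gene ID 11629) rose between 16 and 24 days, with no change past the test before that. Its values were -0.05, 0 and -0.16 at 8 days, 0.06, -0.11 and -0.07 at 16 days, and 2.52, 1.85 and 1.69 at 24 days. The arrays of 8 and 16 days overlapped, and all arrays of 24 days lay above both. The change was 0.03 ± 0.18 for 16 against 8 days (95% interval -0.38 to 0.44; limma adjusted p 0.97) and 2.06 ± 0.18, or 4.16-fold, for 24 against 16 days (limma adjusted p 4.28e-05). Between 16 and 24 days, 13.2% of all genes were higher and 20.1% lower, 33.3% in all, and 2 of 10 members were higher, Aif1 and H2-Ab1, and 0 of 10 lower. Its later change exceeded its earlier one by 2.03 ± 0.32 (limma adjusted p 0.00403). In this contrast 5.38% of all genes passed, 3.06% as higher and 2.31% as lower. Of the 10 members 1, Aif1, passed it and 0 were lower, and for Fcgr3, whose difference was -0.93 ± 0.40, the limma adjusted p was 0.29, or 0.0246 without replicate 3 of 24 days.

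Markers of another cell type also rose in the second interval. All 10 genes of a spermatid list rose between 16 and 24 days and 0 of 10 changed between 8 and 16 days, with per-array means of -0.28 to 0.02 at 8 days, -0.29 to -0.003 at 16 days and 3.54 to 4.58 at 24 days. The array with the highest mean of this list, replicate 1 of 24 days, was also the highest for Aif1, and replicate 3 of 24 days was the lowest of its age for both. The genes with the closest profile to Aif1 over the 9 arrays, among 5828 genes with a range of at least 1, were Klk1b7-ps, Satl1, Catsper4, Cfap97d1 and 1700057G04Rik, with Pearson r from 0.9963 to 0.9976. Catsper4 encodes a subunit of the sperm calcium channel and rose by 2.54 between 16 and 24 days. These correlations are descriptions over 9 arrays that share the age steps. The part of germ cells in the Aif1 values was not tested.

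The neighbours of Aif1 lie in the major histocompatibility complex of chromosome 17. Lst1, a leukocyte transcript that lies beside Aif1, changed by -0.43 ± 0.17 between 16 and 24 days (limma adjusted p 0.0781), and Tnf, a macrophage cytokine, fell by 0.37 over the same interval. On the other side, Prrc2a changed by 0.19 ± 0.11 (limma adjusted p 0.192), and Bag6, a chaperone needed in male germ cells, rose by 0.54 ± 0.13 (limma adjusted p 0.011). The other measured neighbours had lower means at 24 than at 16 days. These means were -0.06 and 0.06 for Apom and -0.13 and 0.12 for Ltb.

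**Figure D2:**
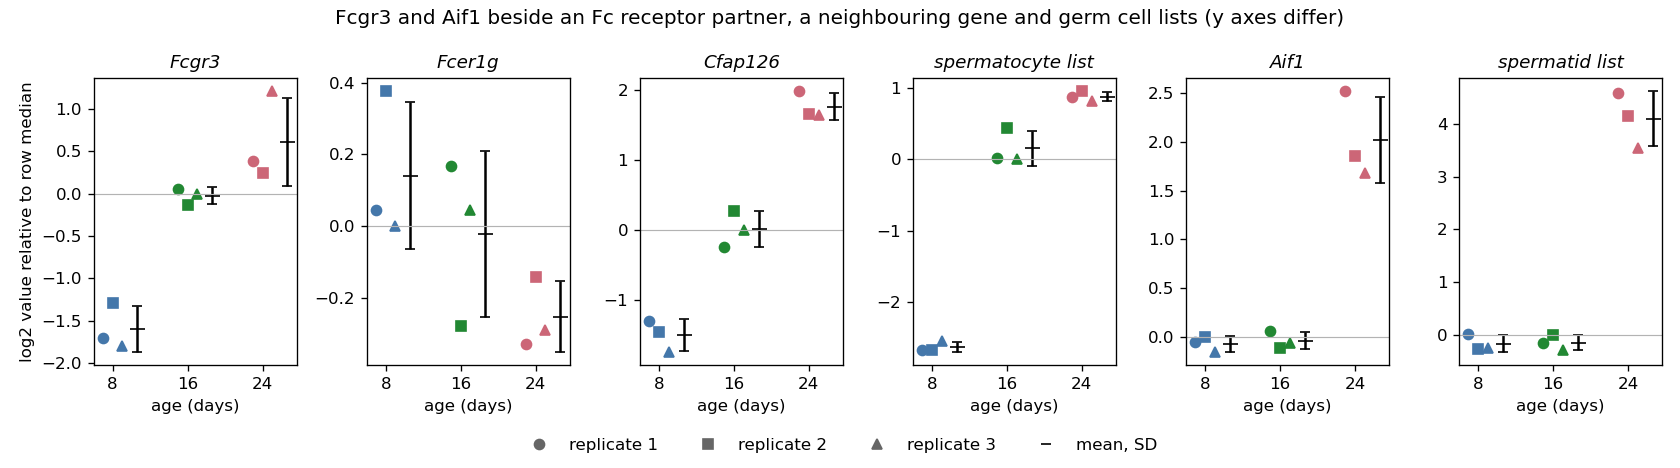
Log2 values relative to the row median against age in days for Fcgr3, its signalling partner Fcer1g, the neighbouring gene Cfap126 and Aif1, and per-array means of the spermatocyte and spermatid lists (10 genes each). Symbols are arrays, bars are mean ± SD, and the vertical axes differ. Fcgr3 and the spermatocyte list have their largest step before 16 days, Aif1 and the spermatid list have theirs after it, and Fcer1g is negative in all 3 arrays of 24 days.

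Among the class II genes, H2-Ab1 alone passed the test. H2-Ab1 (gene ID 14961) had values of -0.63, -1.13 and -0.46 at 8 days, 0.12, 0 and -0.29 at 16 days, and 1.35, 0.68 and 1.07 at 24 days. No array of an older age overlapped one of a younger age. H2-Ab1 was 3.43-fold higher at 24 than at 8 days, with a change of 1.78 ± 0.21 (limma adjusted p 5.12e-05) and a range of 1.59 to 1.96 over the fits that left out 1 array. Between 16 and 24 days it rose by 1.09 ± 0.21 (limma adjusted p 0.00387). Between 8 and 16 days it changed by 0.69 ± 0.21 and passed the test (limma adjusted p 0.0357), but this call was lost without replicate 1 or 2 of 8 days, replicate 1 or 2 of 16 days or replicate 3 of 24 days, with a limma adjusted p of up to 0.125.

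The alpha chain that pairs with it did not pass the test in any comparison. H2-Aa (gene ID 14960) had values of 0, -0.02 and 0 at 8 days, 0.59, 0.11 and -0.23 at 16 days, and 0.51, -0.13 and 0 at 24 days. The 3 arrays of 8 days lay within 0.03 of each other, whereas those of 16 and 24 days lay on both sides of them. H2-Aa was 0.13 ± 0.21 higher at 24 than at 8 days, with a 95% interval of -0.33 to 0.60 (limma adjusted p 0.6). That interval lies below the interval of H2-Ab1, 1.32 to 2.24. The difference H2-Ab1 minus H2-Aa averaged 0.91 ± 0.14 at 24 days, against -0.74 ± 0.33 at 8 days (SD, n = 3), without overlap (exact permutation test, 2-sided p 0.1, the smallest possible here). Altogether 6 such differences between a pair of genes were computed, chosen after the values were seen, and each gave p 0.1 for 24 against 8 days, also after adjustment over the 6.

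Cd74 (gene ID 16149), the invariant chain, varied within an age more than between ages. Its values were -0.25, 0 and -0.21 at 8 days, 0.42, 0.54 and -0.45 at 16 days, and 0.74, -0.30 and 0.03 at 24 days. Replicate 1 of 24 days was the highest of all arrays and replicate 3 of 16 days the lowest, and the ages overlapped in every comparison. The change for 24 against 8 days was 0.31 ± 0.29 (95% interval -0.34 to 0.97; limma adjusted p 0.382). It was 0.02 without replicate 1 of 24 days and 0.54 without replicate 2 of 24 days. For 16 against 8 days, Cd74 changed by 0.32 ± 0.29, or 0.63 without replicate 3 of 16 days.

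H2-Eb1 (gene ID 14969), the beta chain of I-E, varied least of the 10 genes, with a range of 0.44 over the 9 arrays. Its values were 0.24, -0.03 and 0.02 at 8 days, 0.18, 0.20 and -0.01 at 16 days, and 0, -0.19 and -0.13 at 24 days. The highest values, 0.24 and 0.20, were in both arrays with raised olfactory receptor genes. Whether H2-Eb1 was detected above background was not tested. The change was -0.19 ± 0.11 for 24 against 8 days (limma adjusted p 0.158) and -0.23 ± 0.11 for 24 against 16 days (limma adjusted p 0.11), near the median of all genes in both.

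The mean of the 4 class II genes per array was -0.16, -0.30 and -0.16 at 8 days, 0.33, 0.21 and -0.25 at 16 days and 0.65, 0.02 and 0.24 at 24 days. Without H2-Ab1 the mean of the other 3 genes was 0.00, -0.02 and -0.06 at 8 days, 0.40, 0.29 and -0.23 at 16 days and 0.42, -0.21 and -0.03 at 24 days. The arrays of 24 days lay above those of 8 days in the mean that included H2-Ab1, and on both sides of them in the mean that did not. The genes closest to the 4-gene mean were Cln6, Olfr1392, Psca, Gm6583 and 4933405L10Rik, with r from 0.866 to 0.881 over 9 arrays.

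The array of 16 days with raised interferon-induced genes was also the highest of all 9 for H2-Aa. The next highest H2-Aa value, 0.51, was in replicate 1 of 24 days, where the mean of the interferon-induced genes was -0.28. Cd74 was highest in that array of 24 days, at 0.74, against 0.42 in replicate 1 of 16 days. In replicates 1, 2 and 3 of 16 days, the interferon-induced transporter gene Tap1 had values of 2.57, 0.01 and -0.09, and the chemokine gene Cxcl9 had 2.05, 0.05 and -0.01. Ciita, the class II activator, was highest in the same array, at 0.77, against -0.13 to 0.47 in the other 8 arrays, and changed by -0.26 ± 0.19 between 8 and 24 days (limma adjusted p 0.267). Of 14 class I pathway genes, 9 were highest in that array. Without it, H2-Aa changed by -0.05 for 16 against 8 days and by 0.18 for 24 against 16 days, and neither change passed the test in that fit. The 5 genes closest in profile to H2-Aa, a search added after its values were seen, were Ccl8, Stat2, Cxcl9, Xdh and Gbp5, with r from 0.708 to 0.891 over 9 arrays. Of these, Stat2, Cxcl9 and Gbp5 are known as interferon pathway genes.

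**Figure D3:**
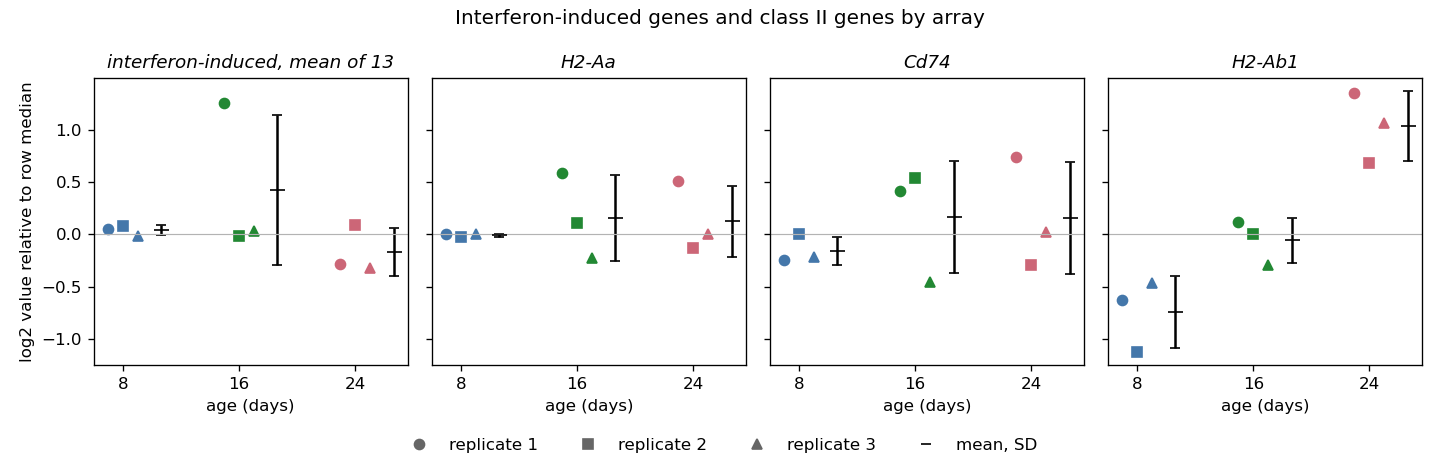
Per-array mean of 13 interferon-induced genes, and log2 values relative to the row median of H2-Aa, Cd74 and H2-Ab1, against age in days. Symbols are arrays and bars are mean ± SD. Replicate 1 of 16 days has an interferon mean of 1.26 and the highest H2-Aa value, 0.59, while H2-Ab1 in that array, at 0.12, is below all arrays of 24 days.

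Of 15 other class II pathway genes measured, 1 rose and 5 fell between 8 and 24 days, where 19.2% of all genes rose and 35.2% fell, with a median change of -0.22 against -0.18 for all genes. With each array centred on its median 3 rose and 3 fell, and without both arrays with raised olfactory receptor genes 0 rose and 5 fell. The largest fall was that of Ifi30, a lysosomal thiol reductase that unfolds antigens, by 1.29 ± 0.14 (limma adjusted p 3.37e-05), followed by the endosomal protease Ctsl, by 0.52 ± 0.11. Rfx5, a subunit of the factor that binds the X box, rose by 0.35 ± 0.12 (limma adjusted p 0.0278). H2-DMa, a chain of the peptide exchange factor, rose by 0.39 ± 0.13 between 16 and 24 days (limma adjusted p 0.0442), a call lost without both arrays with raised olfactory receptor genes, while H2-Oa and H2-Ob, chains of its inhibitor, changed by -0.16 ± 0.12 and -0.07 ± 0.10 and did not pass. Over the same span of 8 to 24 days, 1 class I pathway gene rose and 4 fell of 14, against the same 19.2% and 35.2% of all genes, including Erap1, the peptidase that trims peptides for class I, which fell by 1.62 ± 0.22 (limma adjusted p 0.00015).

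Of the 4 general macrophage genes 2 fell between 8 and 24 days and 0 rose, where 35.2% of all genes fell and 19.2% rose. Markers of other somatic cells of the testis fell over the same span: 10 of 10 endothelial, 10 of 11 Sertoli cell, 7 of 8 peritubular myoid and 6 of 7 Leydig cell markers, with median changes of -0.64, -0.98, -0.77 and -1.36. Their part in the values of Csf1r and Cx3cr1 was not tested. Csf1r (gene ID 12978) had values of 0.26, 0.57 and 0.29 at 8 days, -0.07, 0 and 0.15 at 16 days, and -0.28, -0.08 and -0.06 at 24 days. The arrays of 24 and 8 days did not overlap, and the change was -0.51 ± 0.11, or 1.43-fold lower at 24 days (limma adjusted p 0.00297). The first step, 16 against 8 days, was -0.34 ± 0.11 and just passed (limma adjusted p 0.0488). That call was lost when arrays were centred (limma adjusted p 0.103) and in 7 of the 9 fits that left out 1 array, and held only without replicate 1 of 8 days or replicate 3 of 16 days.

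Cx3cr1 (gene ID 13051) had values of 0.53, 0.48 and 0.28 at 8 days, -0.24, 0.16 and 0 at 16 days, and -0.19, -0.07 and -0.26 at 24 days. All arrays of 16 and 24 days lay below those of 8 days. Cx3cr1 fell by 0.61 ± 0.12 between 8 and 24 days (limma adjusted p 0.00149) and by 0.46 ± 0.12 between 8 and 16 days (limma adjusted p 0.0184). The earlier call was lost without replicate 2 of 8 days (limma adjusted p 0.0613) or replicate 1 of 16 days (limma adjusted p 0.0729). Relative to the median of all genes, the changes for 24 against 8 days were smaller, and with centred arrays Csf1r and Cx3cr1 both still passed as lower.

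Adgre1 (gene ID 13733) had values of 0, 0.74 and 0.08 at 8 days, -0.28, 0 and 0.08 at 16 days, and -0.22, 0 and -0.18 at 24 days. The row had 3 blank cells, so that its 3 values of 0, including that of replicate 1 of 8 days, were blanks read as 0. Replicate 2 of 8 days was the highest array, and the ages overlapped. The change for 24 against 8 days, -0.41 ± 0.18, did not pass (limma adjusted p 0.0868), though it did at -0.54 without replicate 1 of 8 days (limma adjusted p 0.0396), and it was -0.17 without replicate 2 of 8 days. Mrc1 (gene ID 17533) had values of -0.23, 0.36 and 0 at 8 days, -0.28, -0.05 and 0.07 at 16 days, and -0.02, 0.49 and 0.05 at 24 days. Its arrays overlapped between all ages and replicate 2 was the highest at 8 and at 24 days. Mrc1 changed by 0.13 ± 0.18 between 8 and 24 days, with a 95% interval of -0.27 to 0.53 (limma adjusted p 0.554).

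**Figure D4:**
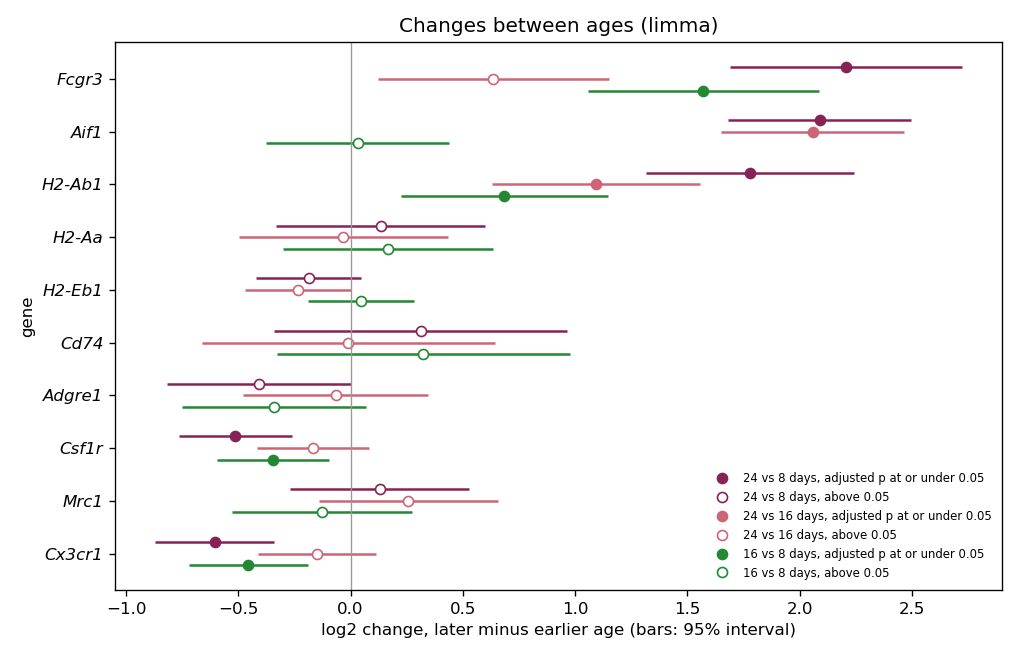
Log2 change of each gene between ages (horizontal axis, later minus earlier) with its 95% interval from limma, for 24 against 8, 24 against 16 and 16 against 8 days. Filled points have an adjusted p at or under 0.05. For 24 against 8 days, Fcgr3, Aif1 and H2-Ab1 lie at 1.78 to 2.21, and Csf1r and Cx3cr1 lie at -0.51 and -0.61.

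The ligands of these receptors were lower at 24 days as well or did not pass. Cx3cl1, which encodes fractalkine, had values of 0.70, 0.61 and 0.49 at 8 days, 0.07, 0 and -0.10 at 16 days and -0.32, -0.51 and -0.47 at 24 days. It fell by 1.03 ± 0.09 between 8 and 24 days (limma adjusted p 1.01e-05), in the same direction as its receptor Cx3cr1. Csf1, the growth factor that binds Csf1r, fell by 0.52 ± 0.17 (limma adjusted p 0.0245), and Il34, the other ligand, changed by -0.26 ± 0.14 (limma adjusted p 0.133). Of 17 growth factors, attractants and their receptors in the list, 4 fell and 0 rose between 8 and 24 days, where 35.2% of all genes fell and 19.2% rose, with a median of -0.21 against -0.18 for all genes, and with centred arrays or without both arrays with raised olfactory receptor genes 2 fell. Between 16 and 24 days 7 of them fell, where 20.1% of all genes fell, but 1 without replicate 1 of 16 days.

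Fcgr3 and Aif1 rose while Csf1r fell. Fcgr3 minus Csf1r averaged 0.75 ± 0.47 at 24 days and -1.97 ± 0.12 at 8 days (SD, n = 3), and Aif1 minus Csf1r averaged 2.16 ± 0.56 at 24 days and -0.44 ± 0.13 at 8 days. In neither difference did the ages overlap (exact permutation test, 2-sided p 0.1 for each, the smallest possible here). That outcome was fixed beforehand, since Fcgr3 and Aif1 lay higher and Csf1r lower at 24 days, each without overlap. Both pairs were chosen after the values were seen, so that the test adds nothing to the single genes. Per array, the mean of Fcgr3 and Aif1 lay between 1.05 and 1.45 at 24 days, against -0.98 to -0.64 at 8 days. The mean of the 4 general macrophage genes lay between -0.18 and 0.08 at 24 days, against 0.14 to 0.54 at 8 days.

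The list of other macrophage genes had a share of falls near that of all genes. Of 34 measured, 14 fell and 0 rose between 8 and 24 days, with a median change of -0.28 against -0.18 for all genes, and of all genes 35.2% fell. The count was 12 without both arrays with raised olfactory receptor genes, where 11153 of all genes passed in either direction. With centred arrays 6 fell and 1 rose, where 5236 of all 19935 genes fell and 4389 rose. The largest falls were those of Maf, a transcription factor of macrophages that other testis cells also express, by 1.10 ± 0.09 (limma adjusted p 5.95e-06), the chemokine Pf4 by 0.99 ± 0.17 (limma adjusted p 0.000652), the adaptor Tyrobp by 0.68 ± 0.21 (limma adjusted p 0.0192) and the transcription factor Irf8 by 0.68 ± 0.21 (limma adjusted p 0.0167). Cd68, a lysosomal protein, fell by 0.47 ± 0.12, and C1qa, a complement chain, fell by 0.36 ± 0.11. The pan-leukocyte gene Ptprc changed by -0.20 ± 0.09 (limma adjusted p 0.0935), Itgam by -0.26 ± 0.10, Lyz2 by -0.30 ± 0.22 and the scavenger receptor Cd163 by 0.01 ± 0.12, and none of these 4 passed.

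**Figure D5:**
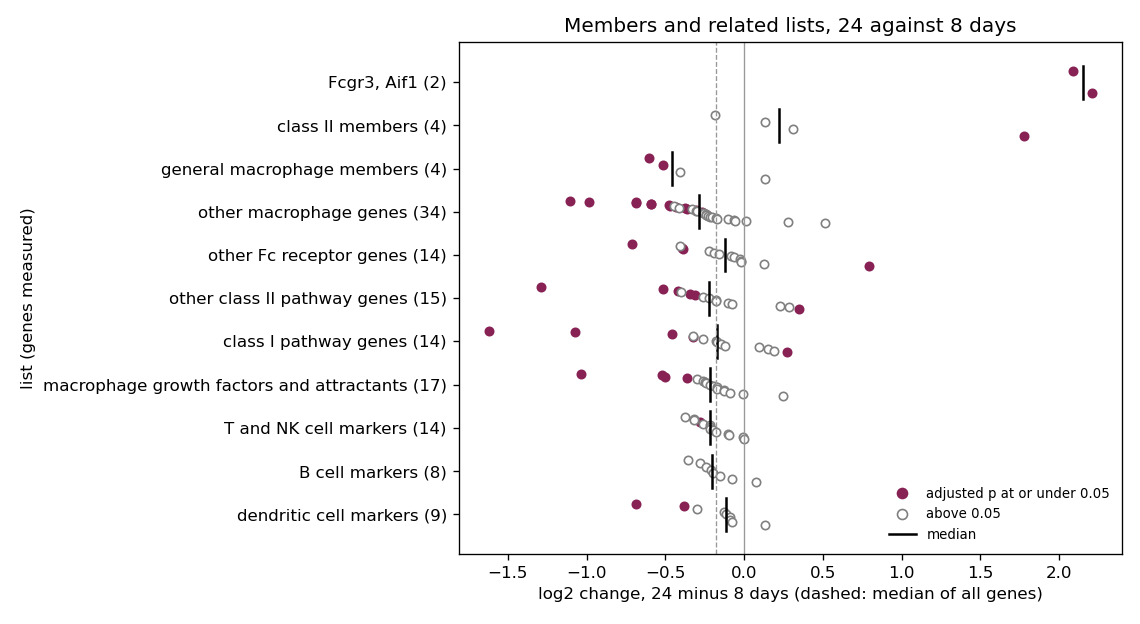
Log2 change for 24 against 8 days of the members and of related gene lists, 1 point per gene, with the number measured in brackets; filled points have a limma adjusted p at or under 0.05, short bars are list medians and the dashed line is the median of all genes. Fcgr3, Aif1 and H2-Ab1 lie to the right of every gene in the other lists, whose medians lie between -0.28 and -0.12.

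Markers of other leukocytes are given beside 19.2% of all genes that rose and 35.2% that fell between 8 and 24 days. Over that span 0 of 14 T and NK cell markers and 0 of 8 B cell markers rose, and 1 and 0 fell. Of 9 dendritic cell markers 0 rose and 2 fell, with Zbtb46 changing by -0.69 ± 0.11. Of 10 neutrophil markers 0 rose and 2 fell, and of 4 red cell markers 0 changed. Of 8 mast cell markers 3 fell and 1 rose, Hdc, the enzyme that makes histamine, by 0.47 ± 0.17 (limma adjusted p 0.0359). Without both arrays with raised olfactory receptor genes 0 mast cell markers rose and 1 fell. With each array centred on its median, 0 T and NK cell, mast cell or neutrophil markers fell, and 2 dendritic cell markers did. The T and NK cell, B cell, dendritic cell and neutrophil lists had their highest per-array means in both arrays with raised olfactory receptor genes. At 8 and 16 days these means were 0.32 and 0.23 for T and NK cells and 0.43 and 0.38 for B cells. They were 0.33 and 0.23 for dendritic cells and 0.27 and 0.25 for neutrophils. Whether these markers were detected above background was not tested. The counts therefore do not show whether these cells changed.

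The profile of H2-Ab1 was closest to those of Gm10638, Fndc3a, 4931422A03Rik, Ttc21a and Dnajc4, with r from 0.981 to 0.984 over the 9 arrays, a search added after its values were seen. Ttc21a, a protein of intraflagellar transport, rose by 1.82 between 8 and 24 days, and Fndc3a, which is needed for the adhesion of spermatids to Sertoli cells in mice, rose by 0.78. For Fcgr3 the closest genes were Hspb6, Stx17, Tmem231, Rnf144b and Stom, with r from 0.975 to 0.986. Hspb6, a small heat shock protein, rose by 1.31 between 8 and 16 days, and Stom, a membrane protein, rose by 1.10. None of these 10 genes belongs to the lists of leukocyte or class II genes, but the search could have returned only some of those. It left out the 10 members and all genes with a range under 1, which most genes of those lists had. Genes such as Ifi30 and Pf4, with ranges of 1.66 and 1.57, remained in it, and for H2-Aa it returned Ccl8. No conclusion is drawn from this absence.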

How the data were processed

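RNA of whole testis, hybridised to 9 arrays, was biotin-labelled with an Affymetrix whole-transcript kit, per the labels' protocols. The authors deposited log2 values, taken here as base 2, for 28815 rows; correction, normalization and centring are not given in the sources used here. The 38964 blank cells were read as 0, which puts each row's median at 0. Rows with 1 gene symbol in the probe table, 21780 of them, were averaged to 19935 genes, with no filter on low values.

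Every gene had a mean fitted per age over the 9 arrays in limma 3.58.1 (R 4.3.3; moderated by eBayes, with 6 residual degrees of freedom and 3.82 from the prior). The p-values are 2-sided, with Benjamini-Hochberg adjustment over all genes and a threshold of 0.05. Errors of changes are standard errors. Differences between a pair of genes were tested with an exact permutation test (scipy 1.17.1). The fit was tested on simulated data with 50 changed genes of each size. For 16 against 8 days it recovered 36% of log2 changes of 0.5, 88% of those of 1 and 82% of those of -1. In that simulation a change of 0.5 was thus often missed. It left 19735 of 19935 genes unchanged, whereas 4914 genes passed for 16 against 8 days in the data. The adjustment was therefore stricter in the simulation, and its recovery does not carry over to these data.

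The members and lists were chosen with earlier results of these data known, and lists have counts and medians only. Beside the members, the rule named up to 4 list genes with the largest changes past the threshold, direct partners of the members, the 5 genes closest in profile, and the RefSeq neighbours of Fcgr3 and Aif1. Alternatives covered centring, blanks, row choice, array weights, arrays used, eBayes, a fold minimum, a replicate block and leaving out arrays. Sequences and gene order come from RefSeq tables (GRCm38.p6).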

Additional observations from a re-analysis of the deposited data

Results flagged for a closer look

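Aif1 behaved differently in the second interval, 24 against 16 days, from the first, 16 against 8 days. The difference between the intervals was 2.03 on the log2 scale (limma adjusted p 0.00403), with a change of 2.06 in the second and 0.03 in the first interval, and it lay between 1.78 and 2.19 when each array was left out in turn. All 3 arrays of 24 days were above all 6 earlier arrays. With 3 arrays per age no array was formally tested as an outlier, though each was left out in turn.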

How the results depend on the processing

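Over all genes, 4914 differed between 16 and 8 days, 6645 between 24 and 16 days, 10840 between 24 and 8 days and 1072 between the intervals. With at least a 2-fold change these became 954, 1101 and 3364 for the age comparisons. With each array centred on its median, 2861 were higher and 1927 lower for 24 against 16 days, in place of 2641 and 4004, and 4389 were higher and 5236 lower for 24 against 8 days, in place of 3825 and 7015. Replicate numbers did not pair the arrays: same-numbered arrays of different ages had correlations of their deviations from -0.461 to 0.453. With a replicate block on the 6 numbered arrays, 1971, 1294 and 550 genes passed for 16 against 8 days, 24 against 16 days and the difference of intervals, Cx3cr1 and Csf1r were no longer lower at 16 days, leaving 0 members, and the 3 rises for 24 against 8 days still passed. With a block over all 9 arrays Adgre1 also passed for 24 against 8 days (limma adjusted p 0.0423). When each array was left out in turn, the counts ranged from 3741 to 5081, from 3669 to 8070, from 9341 to 11240 and from 613 to 1047. For 24 against 16 days 3669 genes passed without replicate 1 of 16 days and 3811 without replicate 1 of 24 days, and without replicate 1 of 16 days 613 genes differed between the intervals. For 16 against 8 days the higher members numbered 1 to 2 and the lower ones 0 to 2, for 24 against 16 days the higher ones 2 to 3, for 24 against 8 days the lower ones 2 to 3, and 0 to 1 members were lower in the difference of intervals. For 16 against 8 days, 1 member in place of 2 was higher with blanks left missing, array weights, a 2-fold minimum or without both arrays with raised olfactory receptor genes, and 1 in place of 2 was lower with centred arrays, blanks left missing, the row of largest range, array weights, the arrays compared alone, robust eBayes or without both those arrays. With a 2-fold minimum 0 were lower in any comparison. The cause of these shifts was not tested. No member reversed direction where it passed the test in either fit. Of the values of single members under alternatives, 715 stayed on their side of the threshold, 31 no longer passed and 4 newly passed.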
